A study of Rattus norvegicus and Sus scrofa and Bos taurus with 188 samples.

Results

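Interleukins, interferons, chemokines, their receptors and the genes that sense foreign nucleic acid were examined in RNA from pig (Sus scrofa) morulae, the stage at which the embryo is a compact ball of cells before a cavity forms. The set was taken by gene symbol alone. It holds every symbol of the table that starts as an interleukin or interleukin receptor (IL and a digit), an interferon or interferon receptor (IFN), an interferon regulatory factor (IRF), an interferon-induced gene (IFI, IFIT, ISG, MX1, MX2, OAS), a Toll-like receptor (TLR), a chemokine or chemokine receptor (CXCL, CXCR, CCL, CCR) or an NF-kB subunit or inhibitor (NFKB, REL, RELA, RELB), and it adds the sensors and adaptors CGAS, MAVS, MYD88 and IFIH1. IL6R and IL6ST, the receptor chains of IL6, were left out of the set. The pattern took 196 genes of the 15877 gene names in the table, in 324 of its 37571 transcript rows.

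The series profiled DNA methylation, histone marks and RNA in gametes and early embryos of several mammals, and its labels give 188 samples in 90 groups. A single group is used here, pig morulae marked PG, with 4 Smart-seq2 libraries, a method that copies polyadenylated RNA into full-length cDNA. PG is the mark that the labels of related pig samples use for parthenogenetically activated embryos. Such embryos arise from an egg activated without sperm, carry a maternal genome alone and do not develop to term. The labels give no breed, culture condition, treatment or number of embryos per library for these morulae, and there was no fertilised control in the table. The authors merged the 4 libraries into 1 column of FPKM values (fragments scaled to the length of the transcript and to the size of the library, a level per length), so each row has 1 value. No spread between libraries can be given, no difference was tested, and the depth behind a value is unknown. The row with the highest FPKM stands for a gene, and 1 FPKM is the threshold used below. In RNA from whole embryos, fewer cells that carry a transcript and less RNA per cell cannot be told apart.

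Interleukins, interferons and chemokines are secreted proteins that act on cells through surface receptors, often made of 2 or more chains that must be present together. Toll-like receptors detect bacterial molecules or foreign nucleic acid, and cytosolic sensors such as IFIH1 and CGAS detect foreign RNA or DNA. Through adaptors such as MAVS and MYD88, these receptors and sensors switch on interferon regulatory factors and NF-kB, which turn on interferon and cytokine genes. Interferon in turn acts through its receptors and STAT factors to raise antiviral genes such as MX1, ISG15 and the OAS family. In the pig, the elongating conceptus of later stages is known to secrete interferon gamma and interferon delta and a conceptus form of interleukin 1 beta, IL1B2, toward the uterus.

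The set was mostly low or listed at 0, with a minority of exceptions led by the chemokine receptor CXCR3 and the lysosomal thiol reductase IFI30. Of the 196 members, 45 (23.0%) stood at 1 FPKM or more, against 48.8% of all gene names (7747 of 15877). At 10 FPKM or more there were 13 members (6.63%), against 20.2% of all gene names. Of the members, 70 (35.7%) were listed at 0, against 17.3% of all gene names. The members had a median of 0.131 FPKM, against 0.916 FPKM over all gene names, and their upper quartile was 0.796 FPKM, against 6.55 FPKM. Among genes at 1 FPKM or more, the median was 3.91 FPKM for members and 6.89 FPKM for all gene names. A value of 0 says only that the table lists the gene at 0.

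**Figure D1:**
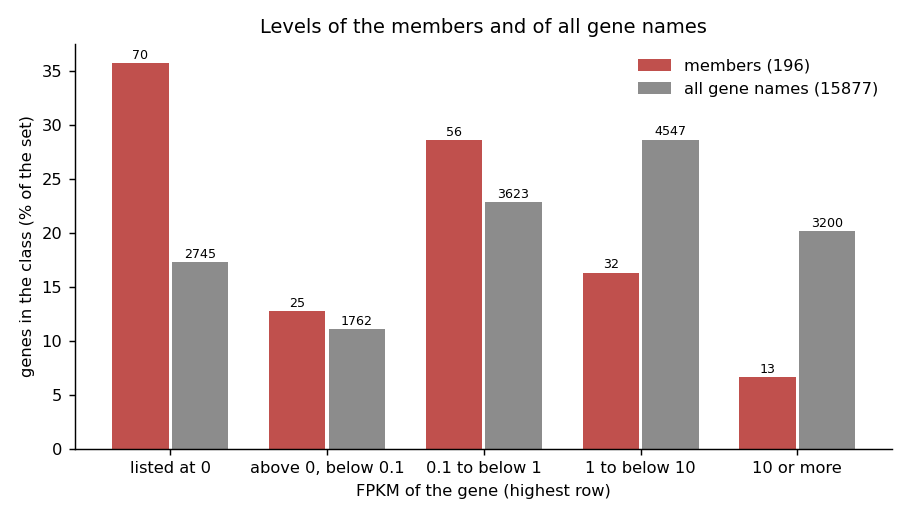
Share of genes in each class of level (FPKM of the highest row) for the 196 members and for all 15877 gene names, in percent of each set, with the number of genes above each bar. The members' bars are taller than those of all gene names in the 3 classes below 1 FPKM and shorter in both classes from 1 FPKM up.

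A gene with more annotated transcripts has more rows from which the highest is taken, so genes were also read by their number of rows. Of members with 1 row, 22 of 124 (17.7%) reached 1 FPKM, against 40.0% of all gene names with 1 row. With 2 rows it was 11 of 41 members (26.8%), against 52.5% of all gene names, and with 3 or more rows 12 of 31 (38.7%), against 58.6%. The members' share was the lower one in each of these classes. Summed over all their rows, the members held 690.6 FPKM of the table's 304889 FPKM. That is 0.227% of the total, while members are 1.23% of the gene names, and CXCR3 and IFI30 alone made up 47.8% of the members' sum.

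**Figure D2:**
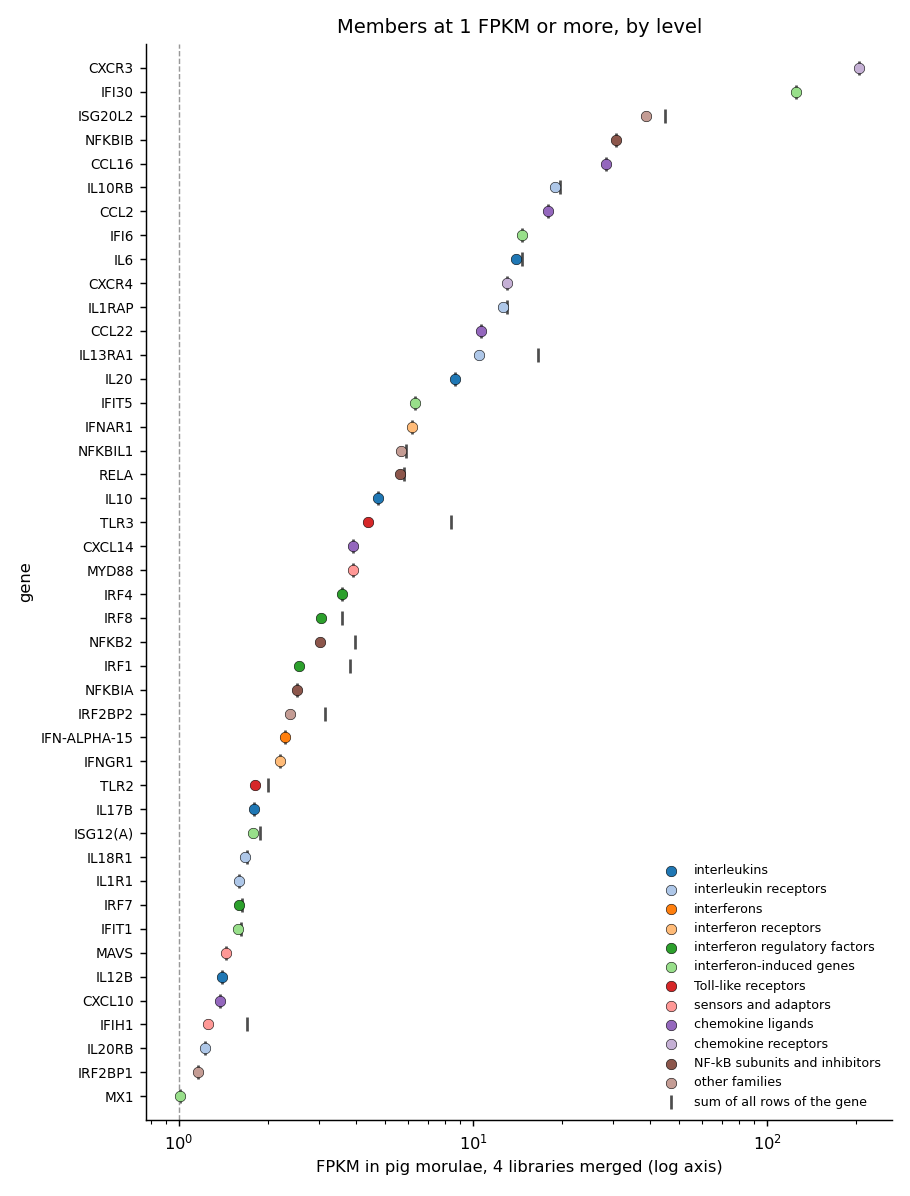
Members at 1 FPKM or more (44 of the 45 are drawn), ordered by the FPKM of their highest row (points, coloured by role, log axis), with the sum over all rows of the gene as a vertical tick. CXCR3 at 205 FPKM and IFI30 at 125 FPKM stand apart at the top, and MX1 at 1.01 FPKM lies closest to the dashed line at 1 FPKM.

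The roles did not share one level. Secreted ligands were the lowest class: 11 of 89 interleukins, interferons and chemokines (12.4%) stood at 1 FPKM or more and 50 were listed at 0. Receptors came between, with 12 of 59 (20.3%) at 1 FPKM or more and 14 listed at 0. The ligand count includes the 34 interferons, with 1 at 1 FPKM or more and 29 listed at 0. Of the interferon receptors, 2 of 4 reached 1 FPKM. In the other families the order of ligands and receptors was mixed. Of the interleukins 15.6% reached 1 FPKM, against 18.2% of their receptors, but their median was higher (0.105 against 0.0600 FPKM). Of the chemokine ligands 21.7% reached it, against 14.3% of the chemokine receptors. The transcription factors, NF-kB inhibitors, sensors, adaptors and interferon-induced genes had 18 of 42 (42.9%) at 1 FPKM or more, against 48.8% of all gene names, and 6 listed at 0. The remaining 6 members belong to other families and are given separately.

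**Figure D3:**
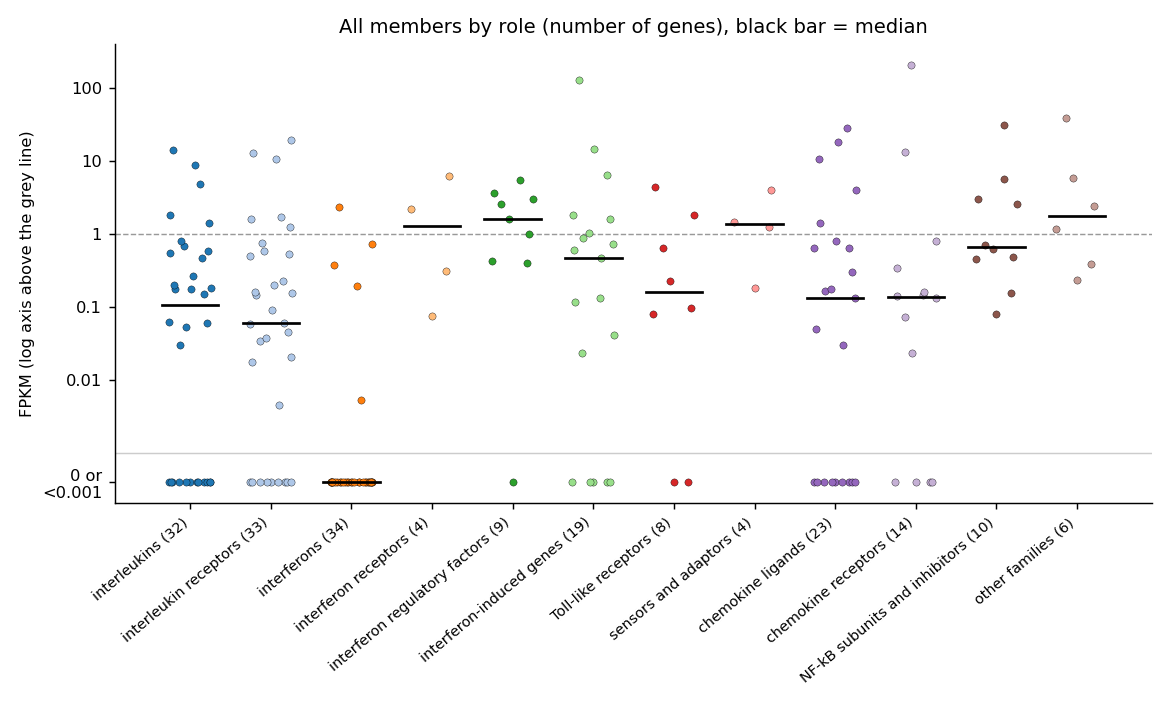
FPKM of every member by role (points, highest row, log axis above the grey line, with genes at 0 or below 0.001 FPKM under it), with the number of genes per role and the median as a black bar. The interferons lie almost wholly at 0, while the medians of interferon receptors, interferon regulatory factors, sensors and adaptors and the other families lie above the dashed line at 1 FPKM.

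Among the ligands, the interleukins had 5 of 32 genes at 1 FPKM or more, a median of 0.105 FPKM and 12 genes listed at 0. IL6, an inflammatory cytokine that signals through IL6ST and STAT3, was the highest at 14.0 FPKM. Its receptor chains stand outside the set, with IL6R at 0.410 FPKM and the shared signalling chain IL6ST at 3.44 FPKM. IL20, an epithelial cytokine of the IL10 family, stood at 8.69 FPKM, and its relative IL24 at 0.537 FPKM. IL10, which restrains inflammation, stood at 4.76 FPKM. The other interleukins past the threshold were low, with IL17B at 1.79 FPKM and IL12B, the shared subunit of interleukins 12 and 23, at 1.40 FPKM. The partners of IL12B in those dimers were below 1 FPKM, with IL12A at 0.199 FPKM and IL23A at 0.265 FPKM. IL1A, an alarm cytokine kept inside the cell until it is damaged, stood at 0.801 FPKM, IL17D at 0.688 FPKM and IL26 at 0.577 FPKM. The lymphocyte cytokines IL4, IL9 and IL13 were listed at 0, IL2 stood at 0.0534 FPKM and IL7, which maintains lymphocytes, at 0.472 FPKM. The conceptus cytokine IL1B2 was listed at 0 in a stretch of 474 rows at the end of the table that are all at 0, so nothing is read from its value.

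The interferons were the role with the largest share listed at 0, 29 of 34 genes, and their median was 0. Only IFN-ALPHA-15 reached the threshold, at 2.30 FPKM. The other 9 of 10 IFN-ALPHA copies were listed at 0. The 10 IFN-DELTA copies, a type I subtype found in the pig, had 9 at 0 and IFN-DELTA-6 at 0.196 FPKM, and the 6 IFN-OMEGA copies had 4 at 0 and IFN-OMEGA-7 highest at 0.372 FPKM. IFNB1, IFNE, IFNK and IFNG were listed at 0. Of the 2 lambda interferons, IL28B, an older name of an interferon lambda, stood at 0.716 FPKM and IL29 was listed at 0. Copies within a subtype such as IFN-ALPHA are known to be close in sequence, so the copy to which the authors' processing gave a fragment is uncertain, and the value of IFN-ALPHA-15 may belong to another IFN-ALPHA copy. No sequence was compared here.

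The chemokine ligands had 5 of 23 genes at 1 FPKM or more and 9 listed at 0, with a median of 0.131 FPKM. CCL16, a chemokine for monocytes and lymphocytes, was the highest at 28.3 FPKM. CCL2, the main attractant of monocytes, stood at 17.9 FPKM and CCL22, an attractant of regulatory and helper T cells, at 10.6 FPKM. CXCL14, which is made by many epithelia without inflammation, stood at 3.92 FPKM, and CXCL10, a classic interferon-induced chemokine, at 1.38 FPKM. Genes of the same family that lie beside them were low. CCL16 lies in the table between CCL14 and CCL5, both listed at 0, and CCL2 next to CCL11 at 0.303 FPKM. CCL17, the partner of CCL22 at the receptor CCR4, stood at 0.794 FPKM. The neutrophil attractants CXCL8 and CXCL2 stood at 0.647 and 0.638 FPKM, CXCL9 at 0.165 FPKM, and CXCL11, CCL4, CCL19 and CCL20 were listed at 0.

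Among the receptors, the chemokine receptors had only CXCR3 and CXCR4 of 14 genes at 1 FPKM or more, a median of 0.135 FPKM and 4 genes listed at 0. CXCR3, the receptor of CXCL9, CXCL10 and CXCL11 on activated T cells, stood at 205 FPKM in its single row. It was the highest member and ranked 199 among all gene names. CXCR4, the receptor of CXCL12 in cell migration and blood formation, stood at 13.0 FPKM. The next receptor, CCR4, was at 0.807 FPKM, followed by CCR6 at 0.336 FPKM, and CCR2, CCR10, CXCR5 and CXCR6 were listed at 0. The names next to CXCR3 in the table were low, with ITGB1BP2 at 0.590 FPKM and NHSL2 at 0.0861 FPKM. Whether the single rows of CXCR3 and of IFI30 hold fragments of another transcript was not tested.

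The interleukin receptors had 6 of 33 genes at 1 FPKM or more, a median of 0.0600 FPKM and 8 listed at 0. The highest were chains that several receptors share or that belong to the interleukin 1 and 13 systems. IL10RB, a chain used by the receptors of IL10, IL22, IL26 and the lambda interferons, stood at 19.0 FPKM. IL1RAP, the accessory chain of the interleukin 1 and 33 receptors, stood at 12.7 FPKM. IL13RA1 stood at 10.5 FPKM in its highest row and at 16.6 FPKM over both its rows, 1 of 3 members past the threshold that move by more than 1.5 times when rows are summed. IL18R1 stood at 1.67 FPKM, IL1R1, the signalling receptor of interleukin 1, at 1.60 FPKM, and IL20RB at 1.22 FPKM. Chains that define lymphocyte receptors were lower, with IL2RA at 0.753 FPKM, IL2RB at 0.0344 FPKM and IL7R listed at 0. IL1R2, a decoy that binds interleukin 1 without signalling, stood at 0.587 FPKM and IL5RA, the eosinophil receptor chain, at 0.526 FPKM.

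All 4 interferon receptor chains of the set were above 0. IFNAR1, a chain of the type I interferon receptor, stood at 6.20 FPKM, and IFNGR1, the ligand-binding chain for interferon gamma, at 2.21 FPKM. Below the threshold were IFNGR2 at 0.306 FPKM and IFNLR1, the specific chain for lambda interferons, at 0.0751 FPKM. IFNAR2 was not analysed here. Their share past the threshold, 2 of 4, is near that of all gene names.

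Of 8 Toll-like receptors, 2 (25%) stood at 1 FPKM or more, against 48.8% of all gene names, and the median was 0.161 FPKM. TLR3, which detects double-stranded RNA in endosomes, was the highest at 4.39 FPKM, and its rows summed to 8.40 FPKM. TLR2, which detects bacterial lipoproteins, stood at 1.81 FPKM. The endosomal sensors of single-stranded RNA were lower, with TLR8 at 0.645 FPKM and TLR7 at 0.228 FPKM. TLR4, the receptor of bacterial lipopolysaccharide, and TLR6 were listed at 0. In the cytosol, IFIH1 (MDA5), which detects long double-stranded RNA, stood at 1.25 FPKM and its adaptor MAVS at 1.45 FPKM. MYD88, the adaptor of interleukin 1 receptors and of most Toll-like receptors, stood at 3.91 FPKM. CGAS, the sensor of cytosolic DNA, was below the threshold at 0.182 FPKM.

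The interferon regulatory factors had 5 of 9 genes at 1 FPKM or more (55.6%), near the 48.8% of all gene names. Their median was 1.60 FPKM, against 0.916 FPKM over all gene names. At 5 FPKM or more there was 1 of 9, against 28.4% of all gene names. IRF4 and IRF8, known for lymphoid and myeloid cells, stood at 3.57 and 3.03 FPKM. IRF1 stood at 2.56 FPKM and IRF7, the amplifier of type I interferon, at 1.60 FPKM. IRF3, the first factor to be activated by nucleic acid sensors, stood at 0.999 FPKM, just outside the threshold, as MX1 at 1.01 FPKM was just inside it. Both rows of IRF3 together gave 1.31 FPKM. IRF9, which joins STAT factors in the response to interferon, stood at 0.423 FPKM, IRF2 at 0.403 FPKM, and IRF5 was listed at 0.

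Of 10 NF-kB subunits and inhibitors, 4 (40%) stood at 1 FPKM or more, against 48.8% of all gene names. None was listed at 0 and the median was 0.664 FPKM. NFKBIB, an inhibitor that holds NF-kB in the cytosol, was the highest at 30.6 FPKM, and NFKBIA, the inhibitor that NF-kB itself induces, stood at 2.52 FPKM. Of the subunits, RELA stood at 5.64 FPKM and NFKB2 at 3.02 FPKM. NFKB1, the usual dimer partner of RELA, was at 0.0806 FPKM, REL at 0.458 FPKM and RELB, the usual partner of NFKB2, at 0.154 FPKM. NFKBIE, NFKBID and NFKBIZ, placed with the inhibitors by symbol alone, lay between 0.474 and 0.710 FPKM. Of each of these usual dimers, 1 chain was past the threshold and the other was not.

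The interferon-induced genes were split: 6 of 19 (31.6%) stood at 1 FPKM or more, against 48.8% of all gene names. Of the 19, 5 were listed at 0, and the median was 0.472 FPKM. IFI30, which reduces disulfide bonds in lysosomes for antigen presentation, stood at 125 FPKM, rank 379 among all gene names. IFI6, a membrane protein that restrains cell death, stood at 14.6 FPKM and IFIT5, an RNA-binding protein, at 6.34 FPKM. The common antiviral effectors were lower. ISG12(A), of the IFI27 family, stood at 1.78 FPKM, IFIT1, which binds foreign RNA caps, at 1.59 FPKM and MX1, a GTPase that traps viral particles, at 1.01 FPKM. ISG15, a ubiquitin-like modifier, stood at 0.875 FPKM, IFI35 at 0.595 FPKM, OAS2, which makes the activator of RNase L, at 0.472 FPKM and OASL at 0.116 FPKM. IFI44L stood at 0.722 FPKM in the highest of its 9 rows and at 2.27 FPKM over all of them, and with IRF3 it was 1 of 2 members that passed 1 FPKM when rows were summed. MX2 stood at 0.0416 FPKM and IFIT2 at 0.0233 FPKM, while IFITM3, IFITM5, IFI27L2, IFI44 and ISG20 were listed at 0.

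The pattern also took 6 genes that share letters with these families but have other known roles, and 4 of them stood at 1 FPKM or more. ISG20L2, a nuclease of ribosome assembly, was at 38.8 FPKM, the third of all members by level, and NFKBIL1, named for its likeness to the NF-kB inhibitors, at 5.70 FPKM. The corepressors that bind IRF2 gave 2.38 FPKM for IRF2BP2, 1.16 FPKM for IRF2BP1 and 0.383 FPKM for IRF2BPL. IL4I1, an amino acid oxidase, stood at 0.235 FPKM. Without these names 41 of 190 genes (21.6%) stood at 1 FPKM or more, against 48.8% of all gene names.

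Ligands were then set beside the receptor chains that bind them, in 31 ligand systems, 21 of which had a ligand and all chains in the table. The list has no system for CCL16, IL6, IL20 and CXCL14, which are past the threshold, so the counts below leave them out. A single system had a ligand and all its chains at 1 FPKM or more, CXCL10 at 1.38 FPKM with CXCR3 at 205 FPKM. CXCL10 was close to the threshold and lies next to ART3 at 3.35 FPKM in the table. In 7 systems at least 1 ligand gene passed the threshold, with IL12 counted through IL12B alone. In 3 systems all chains did, and in 11 at least 1 chain did. For IL10 at 4.76 FPKM, the chain IL10RB stood at 19.0 FPKM but the ligand-specific chain IL10RA at 0.0909 FPKM. IL12B met IL12RB1 at 0.0203 FPKM and IL12RB2 at 0.144 FPKM, and IL17B met IL17RA at 0.223 FPKM and IL17RB at 0.496 FPKM. For IL10 the ligand and the chain IL10RB passed the threshold, and IL10RA did not. For IL17B the ligand passed and both receptor chains were below the threshold. For IL12 both chains were below the threshold too, and of the ligand only the subunit IL12B passed, with IL12A at 0.199 FPKM.

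Chemokines and their receptors were also split. CCL2 at 17.9 FPKM stood against CCR2 listed at 0, and CCL22 at 10.6 FPKM against CCR4 at 0.807 FPKM. The reverse was seen for CXCR4 at 13.0 FPKM, whose ligand CXCL12 stood at 0.0490 FPKM, and for the interleukin 1 receptor, with both chains past the threshold and IL1A at 0.801 FPKM. IL1B was not analysed here. IFNAR1 stood at 6.20 FPKM beside IFN-ALPHA-15 at 2.30 FPKM, and IFNGR1 at 2.21 FPKM beside IFNG listed at 0. Other receptors had a further chain below the threshold: IL13RA1 at 10.5 FPKM with IL4R at 0.154 FPKM, and IL18R1 at 1.67 FPKM with IL18RAP listed at 0. Their ligands were low too, with IL13 listed at 0 and IL18 at 0.0601 FPKM. IL33 stood at 0.183 FPKM and its receptor IL1RL1 at 2.56e-07 FPKM, although the accessory chain IL1RAP was present at 12.7 FPKM. IL22 and its specific chain IL22RA1 were both listed at 0. For the lambda interferons, IL28B at 0.716 FPKM met IFNLR1 at 0.0751 FPKM.

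**Figure D4:**
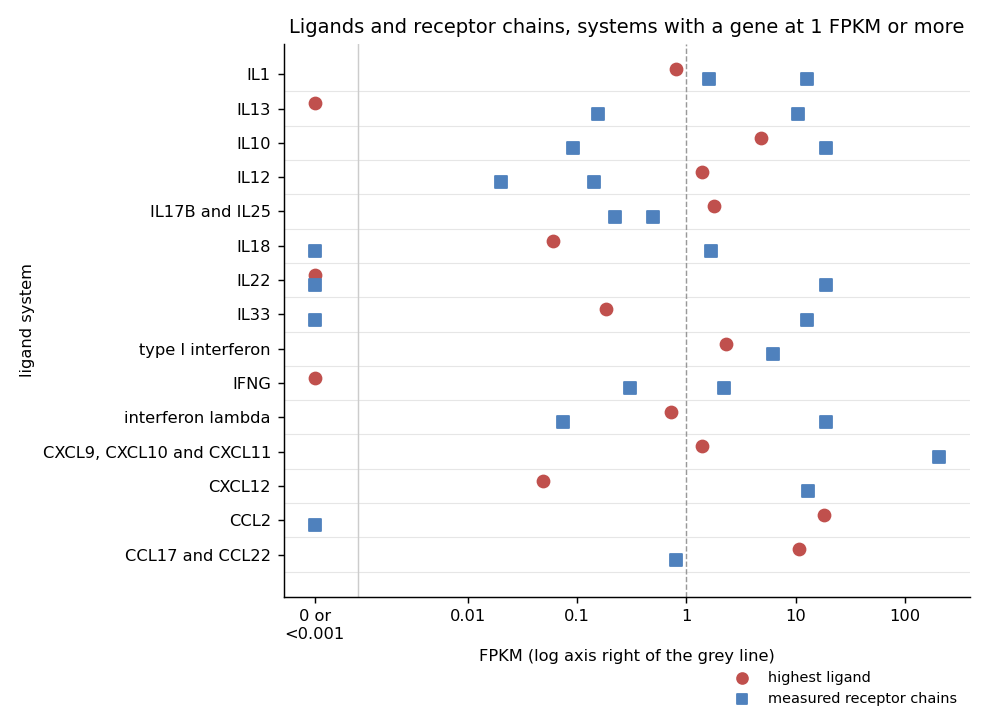
FPKM of the highest ligand (circles) and of each measured receptor chain (squares) in the ligand systems with at least 1 gene at 1 FPKM or more (log axis right of the grey line, genes at 0 or below 0.001 FPKM left of it). Circle and squares lie together right of the dashed line at 1 FPKM for CXCL9, CXCL10 and CXCL11 and for type I interferon, where IFNAR2 was not analysed here.

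Genes of the same pathways that the symbol pattern does not take were read from a list by name: 31 of 67 measured genes (46.3%) stood at 1 FPKM or more, against 48.8% of all gene names, with a median of 0.744 FPKM against 0.916 FPKM. The adaptors and kinases that pass the signal from sensors and receptors were the highest class, with 17 of 22 at 1 FPKM or more and a median of 2.41 FPKM. They were led by TANK, a scaffold of the kinase TBK1, at 57.2 FPKM, TOLLIP, which dampens Toll-like receptor signalling, at 20.5 FPKM, TICAM1, the adaptor of TLR3, at 16.2 FPKM and MAP3K7 (TAK1) at 13.6 FPKM. Below the threshold were TNFAIP3, which limits NF-kB, at 0.151 FPKM, IRAK1 at 0.0543 FPKM and IKBKE at 0.0189 FPKM. TRAF2 and TRAF3 were listed at 0.

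Of the nucleic acid sensing genes, 4 of 10 (40%) passed the threshold, against 48.8% of all gene names. Their median was 0.920 FPKM, near the 0.916 FPKM of all gene names. DDX41 stood at 8.89 FPKM, TMEM173 (STING), the adaptor below CGAS, at 1.94 FPKM, SAMHD1 at 1.44 FPKM and ADAR, which edits double-stranded RNA, at 1.41 FPKM. DDX58 (RIG-I) stood at 0.914 FPKM, TREX1, which degrades cytosolic DNA, at 0.925 FPKM and DHX58 at 0.0641 FPKM. Of the interferon response genes, 9 of 25 (36%) passed, against 48.8% of all gene names, with a median of 0.699 FPKM. They were led by SOCS1, a feedback inhibitor of the pathway, at 27.6 FPKM, STAT2 at 15.8 FPKM, the receptor kinase JAK1 at 8.54 FPKM and B2M, the light chain of class I antigen-presenting molecules, at 2.66 FPKM. PSMB9 at 0.744 FPKM, JAK2 at 0.707 FPKM and ZC3HAV1 at 0.703 FPKM were the highest below it.

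The inflammasome and NOD genes had only RIPK2, the kinase below the NOD receptors, past the threshold, at 6.96 FPKM. That was 1 of 6 (16.7%), against 48.8% of all gene names. NLRP3 stood at 0.592 FPKM, NOD1 at 0.165 FPKM and NOD2 at 0.147 FPKM. None of the 4 TNF family genes passed. TNFRSF1B stood at 0.328 FPKM, LTA at 0.292 FPKM, TNFRSF1A at 0.0529 FPKM and TNF itself at 0.0519 FPKM.

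**Figure D5:**
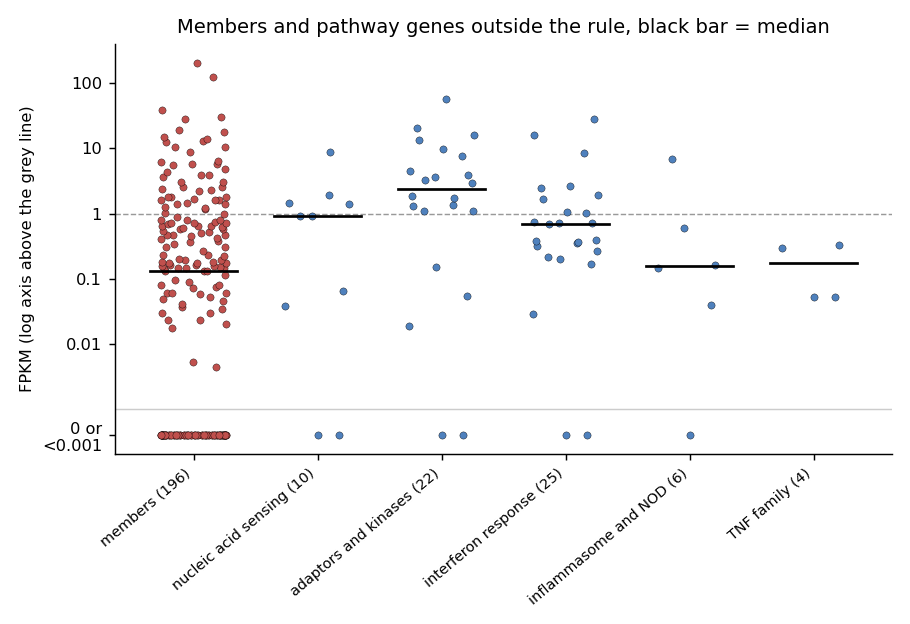
FPKM of the 196 members and, beside them, of the measured pathway genes outside the symbol pattern by class (points, log axis above the grey line, genes at 0 or below 0.001 FPKM under it, median as a black bar, number of genes in brackets). The median of the members, 0.131 FPKM, lies below that of every pathway class, and the adaptors and kinases are the class with a median above the dashed line at 1 FPKM.

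Markers of cells that could carry such transcripts into the sample were read beside these values. Of 18 immune cell markers, 4 (22.2%) stood at 1 FPKM or more, against 48.8% of all gene names. These were AIF1 at 7.93 FPKM, CD14 at 2.38 FPKM, CD68 at 1.32 FPKM and SPI1 at 1.21 FPKM. The highest below the threshold were CD3E at 0.985 FPKM and ITGAM at 0.610 FPKM, or 1.63 FPKM over all rows of ITGAM. PTPRC (CD45), which all white blood cells carry, stood at 0.0269 FPKM, and CD4, CD8A, CD163, CSF1R and TYROBP were listed at 0. The 18 markers summed to 15.3 FPKM. None of 11 measured cumulus and granulosa cell markers reached 1 FPKM, with CYP19A1 the highest at 0.835 FPKM, FSHR, FOXL2, TNFAIP6 and GJA1 listed at 0 and a sum of 1.40 FPKM. None of 6 fibroblast markers did, with PDGFRA the highest at 0.669 FPKM and a sum of 1.41 FPKM. All 11 morula-stage embryo genes stood above 1 FPKM, with a median of 49.4 FPKM, TFAP2C the highest at 194 FPKM, SOX2 the lowest at 5.36 FPKM and a sum of 670.3 FPKM. The embryo genes were listed as genes of this stage, and all lists were chosen with earlier results of these data known. The lists also differ in length, so their counts and sums are not compared with one another. The part of other cell types in the members' values was not tested.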

How the data were processed

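RNA of pig morulae marked PG was measured in 4 libraries, made with Smart-seq2 per the labels' protocols. Per the file headers, the authors' deposited values are FPKM, with 1 row per transcript and the 4 libraries merged in 1 column, as its name says. Per the submitters' processing notes, which cover all data types at once, TopHat2 2.1.1 and Cufflinks 2.2.1 are among the tools named, and susScr11 among the builds. The tools that made these values, the annotation, and whether reads or values were merged are not given in the sources used here. Since FPKM is a level per length, a wrong transcript length or a misassigned fragment shifts a gene's value. As deposited, 4534 rows were above 0 and under 1e-06 FPKM, so whole reads could not be recovered, and depth, intervals and detection limits are unknown.

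Members were found by symbol, roles were assigned by symbol and known function, and levels, counts and medians were computed with Python 3.11.15, pandas 2.3.3 and numpy 2.4.6. Figures were drawn with matplotlib 3.10.9. The counting steps were tested on simulated data. No filter on low values was used. The genes named are all members at 1 FPKM or more, members from 0.5 FPKM to below 1 FPKM, the highest of each role, both sides of a ligand system with a gene at 1 FPKM or more, the 4 highest and the 3 highest below 1 FPKM of each pathway class, and markers at 1 FPKM or more. Some genes that this rule takes are not reported here, nor drawn by name. Further genes were named after their values were seen. The members and lists were chosen with earlier results of these data known. Alternatives changed the row rule, the scaling, the threshold, the low-value filter and the member list. Promoter motifs and sequences were not analysed here, and genes of the lists that have no row in the table were not analysed here.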

Additional observations from a re-analysis of the deposited data

How the results depend on the processing

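No paired analysis was possible because the 4 libraries share 1 column, and for the same reason no library could be left out and no spread is known. The planned motif search in promoters was not run. The share of members at 1 FPKM or more stayed below that of all gene names under every scaling, threshold and filter tried. Scaling all rows to sum to 1000000 gave 75 members (38.3%), against 61.3% of all gene names, a threshold of 5 FPKM gave 19 (9.69%), against 28.4%, and a threshold of 0.5 FPKM gave 64 (32.7%), against 56.5%. Summing rows gave 47 members, and keeping only genes at 0.1 FPKM or more left 45 of 101 members (44.6%), against 68.1%. Scaling multiplied all rows by the same factor, so on the counts it acts as a lower threshold would. It raised both medians alike, to 0.431 for the members and 3.00 for all gene names, so their relation could not change. Among genes at 0.1 FPKM or more, the members' median was 0.753 FPKM, against 2.83 FPKM. At the threshold of 1 FPKM, 3 of 11 roles had a larger share than all gene names (interferon receptors, interferon regulatory factors, sensors and adaptors), and at 5 FPKM 0 did. Summing rows left 2, since the interferon receptors, 2 of 4, fell below the 50.6% of all gene names. Scaling gave 4, with the NF-kB genes added at 8 of 10, and at 0.5 FPKM the 3 were the regulatory factors, the sensors and adaptors and the NF-kB genes, at 6 of 10. Ligand systems with ligand and all chains past the threshold numbered 1, but 3 after scaling, 3 at 0.5 FPKM and 0 at 5 FPKM. The pathway genes past the threshold numbered 31 of 67, against 48.8% of all gene names, and 11 at 5 FPKM, against 28.4%. They numbered 35 with summed rows, against 50.6%, 44 after scaling, against 61.3%, and 38 at 0.5 FPKM, against 56.5%. Their share was below that of all gene names at 1 and 5 FPKM. With summed rows, after scaling and at 0.5 FPKM it was above, so the order depends on the setting. In these counts a higher or lower threshold moves the count by construction. With alternatives chosen after seeing the data, genes with a single row gave 22 of 124 members, leaving out the interferon ligands gave 44 of 162 (27.2%), and without CXCR3 and IFI30 the members' share of the FPKM total was 0.118%, against 0.227% with them. Depth is unknown, so a gene listed at 0 cannot be told from one too low to be seen, and the 14 members between 1 and 2 FPKM lie close to the threshold.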

Other observations

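Outside the listed ligand systems, and chosen after its values were seen, IL20 at 8.69 FPKM stood beside IL20RB at 1.22 FPKM, with the second chain IL20RA listed at 0. IL19, which lies next to IL20 in the table and binds the same receptor, was also listed at 0, and IL24 on its other side stood at 0.537 FPKM.

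The order of the table puts some members next to genes with far higher values. Of the 45 members at 1 FPKM or more, 24 were higher than both adjacent gene names and 21 had a higher neighbour. CXCR3, IL1RAP, IL13RA1, CCL2 and CCL16 were among the 24. The 45 members were picked for their level, which by itself favours a value above the neighbours. The same count was not made for all gene names, so it does not set the members apart from other genes. IL6 at 14.0 FPKM lies next to TOMM7 at 203 FPKM, CXCR4 at 13.0 FPKM next to DARS at 100.1 FPKM, and IRF8 at 3.03 FPKM next to COX4I1 at 1515 FPKM. Fragments shared between neighbours were not tested.

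IL10RB at 19.0 FPKM, IFNAR1 at 6.20 FPKM and IFNGR2 at 0.306 FPKM, which are chains of 3 different receptors, follow one another in the table.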
